A study of Homo sapiens with 20 samples.

Results

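The 79 genes that encode the proteins of the cytosolic ribosome were followed after proteasome inhibition in HCT-116, an established line from a human colorectal carcinoma. They were the protein-coding genes whose symbol is RPL or RPS with a number and at most an A, X or L1 suffix, together with RPLP0, RPLP1, RPLP2 and RPSA. RPS27A, the RPS6K kinase genes and pseudogenes were left out. Of the 39918 genes in the count table, 17975 were protein-coding, and the 79 chosen ones comprised 49 large subunit genes, among them the paralogs RPL22L1, RPL26L1 and RPL7L1, and 30 small subunit genes. Total RNA depleted of ribosomal RNA was sequenced from 5 groups of 4 samples. Cells of 3 groups were held in 2 mM thymidine for 16 h, released for 7 h and then given 3 h of 20 µM MG132 with 50 µg/ml α-amanitin, of 20 µM MG132 alone, or of 100 nM bortezomib. The G2 group had the same thymidine block and release with 0 h of drug, and asynchronous cells had neither block nor drug. MG132 and bortezomib inhibit the proteasome and α-amanitin inhibits RNA polymerase II. A drug group therefore differs from the G2 group by 3 h of time as well as by the drug, and no 3 h vehicle group was analysed here, while the drug groups match each other in time. Whether the 4 samples of a group were grown separately is not stated, so a p-value here rests on a spread that may be technical only.

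Each ribosome holds 1 copy of most of these proteins, and cells make them in near equal amounts. The mRNAs are abundant and long-lived, and many begin with a terminal oligopyrimidine tract (TOP), a C followed by a run of C and U at the very 5′ end through which mTOR and LARP1 set their translation. Ribosomal proteins that find no place in a ribosome are ubiquitinated and degraded by the proteasome, and free RPL5 and RPL11, bound with 5S rRNA, can inhibit MDM2 and so stabilise p53.

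The transcript starts show which genes carry the tract. RefSeq start sequences (GRCh38.p14) were matched by symbol for 64 of the 79 genes, and 46 of the 64 (71.9%) had a start beginning with C and at least 4 further pyrimidines, against 1404 of 27305 genes (5.14%) over the whole table. The same test found 6 of 69 mitochondrial ribosomal protein genes (8.70%). The first 5 lines below are TOP starts and the last 3 are starts without the tract. Each line shows the 10 bases before the annotated start and the first 20 bases of the transcript, 5′ to 3′, with the tract in capitals. These genes were chosen because the values below turn on them.
RPLP0 (chr12:120201092-120201121, minus strand): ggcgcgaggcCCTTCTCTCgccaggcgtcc
RPSA (chr3:39406710-39406739, plus strand): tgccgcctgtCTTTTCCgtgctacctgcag
RPS6 (chr9:19380217-19380246, minus strand): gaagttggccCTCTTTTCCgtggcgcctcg
RPL41 (chr12:56116623-56116652, plus strand): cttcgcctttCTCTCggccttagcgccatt
RPL22L1 (chr3:170870176-170870205, minus strand): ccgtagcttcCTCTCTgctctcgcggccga
RPS26 (chr12:56041908-56041937, plus strand): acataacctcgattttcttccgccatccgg
RPL26L1 (chr5:172958719-172958748, plus strand): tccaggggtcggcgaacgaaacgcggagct
RPL7L1 (chr6:42879606-42879635, plus strand): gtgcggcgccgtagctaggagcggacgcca
A start without the tract here says only that the annotated first base is not followed by it, and RPL26L1 has 2 annotated starts, of which 1 is shown.

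The libraries held 26797395 to 39710457 counts each. HSPA1B, an inducible HSP70 chaperone gene, averaged 4396 ± 949 CPM (counts relative to the TMM-adjusted total of the library) in MG132 cells and 356 ± 63.6 CPM in G2 cells (SD, n = 4 each; log2 fold change 3.63, adjusted p = 4.15e-07). Epithelial markers summed to 3215 to 5975 CPM over the libraries, with CEACAM5 at 0 in every group but G2, against 3.23 to 12.9 CPM for fibroblast markers and 1.60 to 6.25 CPM for leukocyte markers. In 6 libraries the composition stood apart. For each library, the deviations of genes from their mean log2 CPM over the 20 libraries were fitted on GC content and exon length together. The slopes are thus relative to these libraries. The GC slope was steeper than 0.3 log2 units per 10 percentage points of GC in MG132 replicate 2 (-0.42), MG132 replicate 4 (0.79), G2 replicate 2 (0.39) and asynchronous replicate 3 (0.54). Protein-coding genes took 68.3% of all counts in G2 replicate 1 and 67.6% in asynchronous replicate 1. In the other libraries they took 75.5% to 82.2%. All counts here include those of repeat subfamilies. Neither the bortezomib group nor the group given MG132 with α-amanitin held any of these 6, so the medians below are also given without them. That leaves only replicates 1 and 3 of MG132, 3 and 4 of G2, and 2 and 4 of the asynchronous group. In bulk RNA, a change in the RNA of each cell and a change in the mix of cells cannot be told apart.

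Ribosomal protein mRNA took a few percent of all counts, and in MG132, G2 and asynchronous cells its share differed more between libraries of a group than between the means of these groups. In cells given MG132 with α-amanitin, the 4 libraries had 4.65%, 5.09%, 5.18% and 6.19% of their counts in the 79 genes. MG132 libraries had 4.87%, 7.50%, 5.72% and 7.26%, and bortezomib libraries 5.02%, 5.24%, 5.37% and 4.30%. The G2 libraries had 7.49%, 7.04%, 5.02% and 5.07%, and the asynchronous libraries 8.18%, 5.06%, 7.10% and 5.28%. The shares of MG132, G2 and asynchronous libraries fell into a high and a low set, and the high set was the 6 libraries whose composition stood apart. Those 6 had 7.04% to 8.18%, and the other 14 had 4.30% to 6.19% whatever their group. The set of 6 joins the cut on GC slope with the cut on protein-coding counts. Leaving it out was added after seeing the data, so the match is a description. The group means were 5.28 ± 0.653% with MG132 and α-amanitin, 6.34 ± 1.26% with MG132, 4.98 ± 0.477% with bortezomib, 6.16 ± 1.30% in G2 cells and 6.41 ± 1.5% in asynchronous cells (SD, n = 4 each).

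**Figure D1:**
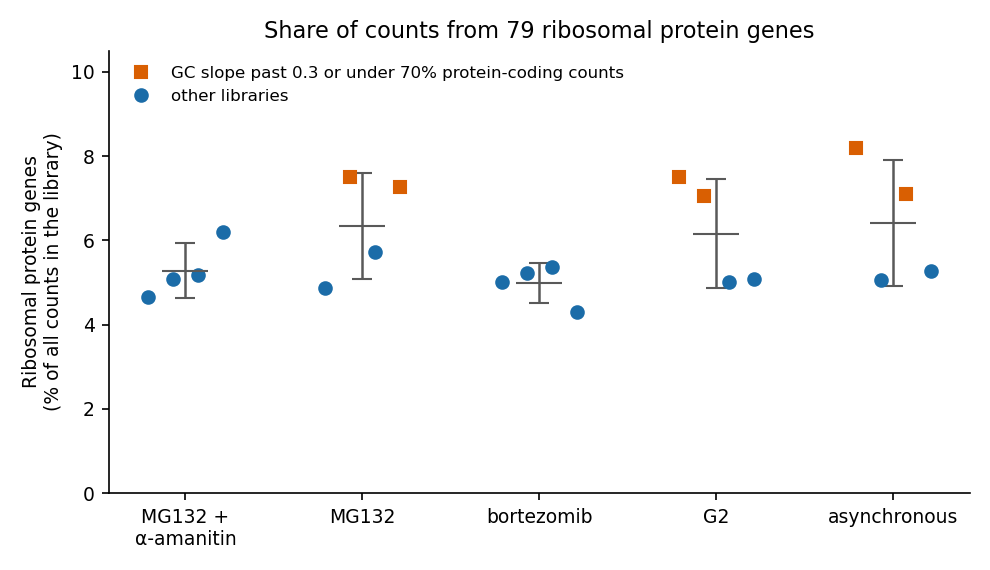
Share of each library's counts (percent, vertical axis) from the 79 ribosomal protein genes, with 1 point per library and the mean ± SD (n = 4) of each group. Orange squares mark the 6 libraries with a GC slope past 0.3 or under 70% protein-coding counts, which lie at 7.04% to 8.18%, above the other 14 at 4.30% to 6.19%.

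**Figure D2:**
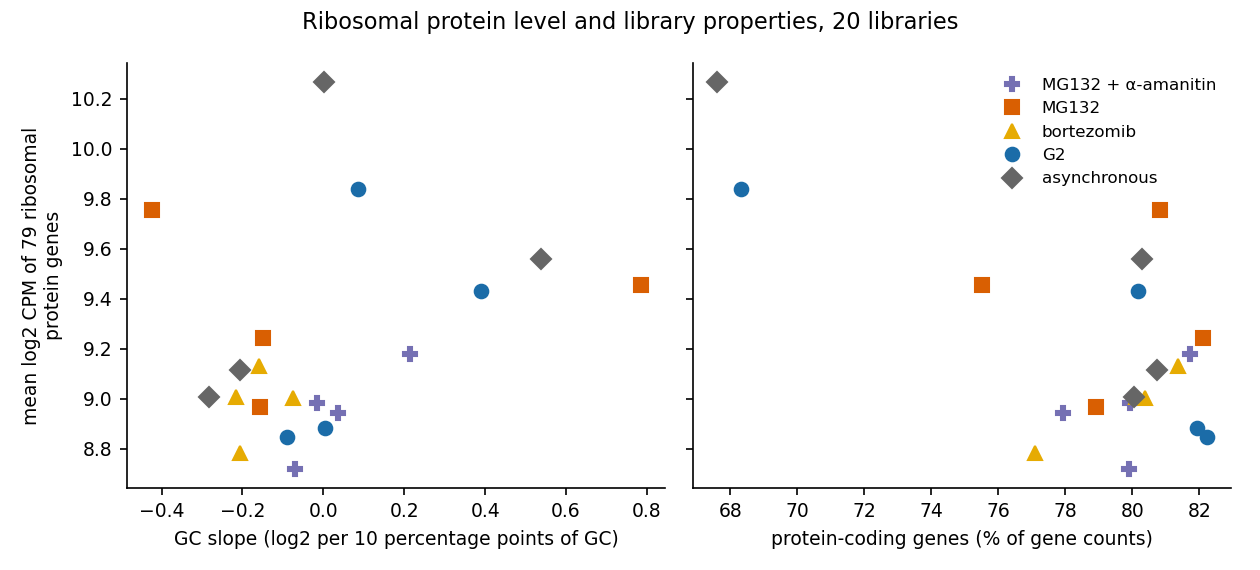
Mean log2 CPM of the 79 genes (vertical axis) against the GC slope (left) and the protein-coding percent of all counts (right), 1 point per library. The right axis label says gene counts, but the denominator is all counts, repeat subfamilies included. The highest levels belong to asynchronous replicate 1 and G2 replicate 1, at 67.6% and 68.3% protein-coding counts, followed by the libraries at either end of the GC slope.

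The 79 genes moved together from library to library. Across the 20 libraries, the log2 CPM of a gene and the mean of the other 78 had a median Pearson correlation of 0.95, and 73 of the 79 genes were above 0.8. The points share library composition and the group, so this is a description of these libraries. RPL7L1, a paralog of RPL7 linked to ribosome assembly, stood alone at -0.07. The next lowest were RPL7 (0.58), RPS3A (0.64) and RPL22 (0.71). The shared movement made up most of the spread between replicates. The SD of log2 CPM between libraries of a group had a median over the 79 genes of 0.19 with MG132 and α-amanitin, 0.43 with MG132, 0.16 with bortezomib, 0.49 in G2 cells and 0.61 in asynchronous cells. After the mean of the 79 genes was subtracted in each library, the same medians were 0.05, 0.21, 0.06, 0.10 and 0.12.

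All 79 genes passed the filter on low counts, with 19.2 to 4358 CPM in any library, and the 10 most abundant took 27.6% of the CPM of the set. Levels of different genes were compared as CPM per kilobase of the annotated principal transcript. In G2 cells RPS2, a small subunit protein near the mRNA entry, was at 2177 ± 501 CPM per kb and RPLP0, the base of the acidic stalk that recruits translation factors, at 2171 ± 839 (SD, n = 4). RPL12 and RPS18 followed. The paralogs were at the low end, with RPL22L1 at 107 ± 54.7, RPL26L1 at 55.2 ± 17.9 and RPL7L1 at 50.6 ± 9.74 CPM per kb. The median gene was at 839.9 CPM per kb. The mean ± SD ranges of neighbours in this order overlapped in 78 of 78 pairs. These SDs include the movement that the genes share between libraries. The overlap therefore does not show whether neighbours differ within a library. Some principal transcripts are annotated with very long ends (RPL37, RPL27A, RPL14), which lowers their value per kb, so the ranks of those genes carry little weight.

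Adding α-amanitin to MG132 was compared with MG132 alone to see which mRNAs fell relative to others when RNA polymerase II was inhibited. TMM scaling sets the typical gene near 0, so a loss shared by most mRNAs would not show here. The 13 mitochondrial mRNAs, which another polymerase makes, had a median log2 fold change of 0.58, with 0 called. Their median also moved in comparisons without α-amanitin. It was 0.47 for bortezomib against G2, 0.25 for MG132 against G2, -0.31 for MG132 against bortezomib and -0.45 for G2 against asynchronous cells. These mRNAs are therefore no fixed reference here. The level of 78 of 79 ribosomal protein genes was lower with α-amanitin on the fitted means, with a median log2 fold change of -0.45 and a range of -0.70 to 0.23, while the median over all tested genes was 0.02. edgeR called 0 of the 79 at an adjusted p under 0.05, where 2.19% of all tested genes were called. The unadjusted p was under 0.05 for 5 of the 79, beside 12.5% of all tested genes, and DESeq2 and limma-voom also called 0. No share of all tested genes is given for DESeq2 and limma-voom, here or below. Large subunit genes without the paralogs had a median of -0.44 and small subunit genes one of -0.47. RPL10A, a protein of the L1 stalk (ENSG00000198755.11; hg38 chromosome 6, 35468408 to 35470785), was at 522, 608, 592 and 727 CPM with α-amanitin and at 652, 1535, 822 and 971 CPM with MG132 alone. Its MG132 replicate 2 was far above the other libraries and the groups overlapped (log2 fold change -0.70, SE 0.30, adjusted p = 0.329).

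RPS9, whose bacterial and yeast relatives help to keep decoding accurate, was the only one of the 79 whose libraries did not overlap in this comparison, and 4.01% of all tested genes were lower without overlap. It was at 385, 454, 429.7 and 504 CPM with α-amanitin and at 542, 617, 620.5 and 856 CPM with MG132 alone (log2 fold change -0.57, SE 0.26, adjusted p = 0.366). It was named after its values were seen. RPL7L1, the 1 gene with a fold change above 0, was at 187, 186, 217 and 204 CPM with α-amanitin and 188, 147, 175 and 168 CPM with MG132 alone (log2 fold change 0.23, SE 0.19, adjusted p = 0.7). The 95% intervals of single genes reached from -1.48 to 0.62, and 30 of 79 lay within a 2-fold change in either direction. Without the 6 libraries the median of the 79 genes was -0.15. Each sample also carries an undocumented code letter. Within letters, with 1 or 2 libraries a side, the median was -0.24 in K, -0.91 in L and -0.23 in O. With the slopes of each library on GC content and length as covariates, the median was 0.20, beside 0.15 over all tested genes. The length slopes, taken from the same gene levels, were 0.046 to 0.082 log2 units per doubling in the α-amanitin libraries. In the MG132 libraries they were -0.079 to 0.026. This covariate and the treatment therefore cannot be told apart, and the fit may remove part of the treatment difference.

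MG132 cells were set against G2 cells to address proteasome inhibition. Here the 79 genes were near no difference, with a median log2 fold change of 0.09 (range -0.30 to 0.43), 60 genes above 0 and 19 below, and a median of -0.03 over all tested genes. edgeR called 0 of the 79, against 2.08% of all tested genes. None of the 79 reached an unadjusted p of 0.05, beside 11.8% of all tested genes, and DESeq2 and limma-voom called 0. RPL3, a core protein of the peptidyl transferase region that joins the large subunit early, was at 1467, 2420.5, 1533 and 2389 CPM in MG132 cells and 1853, 1631, 1139 and 1184 CPM in G2 cells. The groups overlapped (log2 fold change 0.43, SE 0.23, adjusted p = 0.541), and this was the smallest adjusted p among the 79. RPL10A and RPL4, another early large subunit protein, had log2 fold changes of 0.36 (adjusted p = 0.79) and 0.35 (adjusted p = 0.658). The lowest 3 were RPL26L1 (-0.30, adjusted p = 0.83), RPL7L1 (-0.30, adjusted p = 0.632) and RPS26 (-0.30, adjusted p = 0.853), the last a protein at the mRNA exit channel.

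RPL5 and RPL11, the MDM2-binding pair, were at 1052 ± 446 and 938 ± 270.1 CPM in MG132 cells, against 887 ± 245 and 813 ± 170.2 CPM in G2 cells (SD, n = 4 each), with overlapping libraries. RPS6, whose protein S6 kinase phosphorylates, was at 1003, 2024, 1109.5 and 999 CPM in MG132 cells and 1676, 1244, 918 and 862 CPM in G2 cells, again with overlap. The 95% interval of 78 of the 79 genes lay within a 2-fold change in either direction, so a change of more than that was outside the interval of nearly every gene. The sign of the median was not fixed. It was 0.25 without the 6 libraries and -0.17 without the 4 GC-skewed ones. Leaving out single libraries gave 0.36 (G2 replicate 1), 0.21 (MG132 replicate 1), 0.14 (MG132 replicate 3), -0.01 (G2 replicate 4), -0.03 (MG132 replicate 2) and -0.04 (G2 replicate 3). It was -0.18 with mitochondrial mRNA scaling, beside -0.29 over all tested genes, and -0.07 within letter L against 0.37 within letter O.

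**Figure D3:**
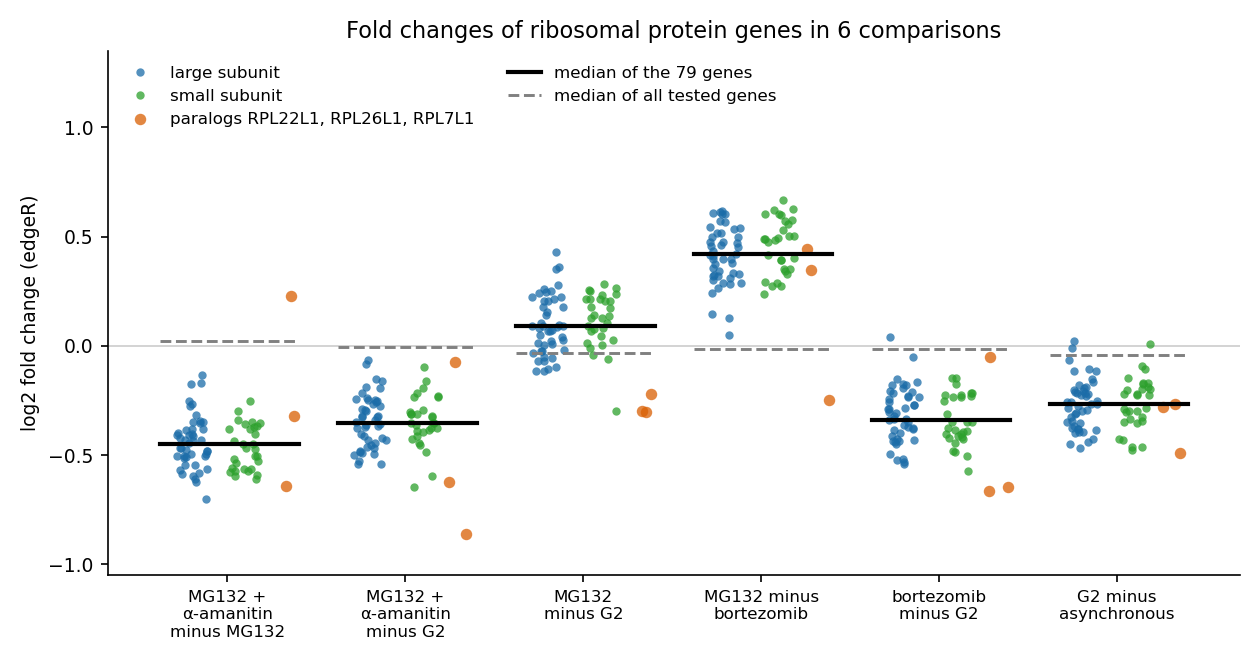
log2 fold change (edgeR, vertical axis) of each of the 79 genes in 6 comparisons, with large subunit genes in blue, small subunit genes in green and the 3 paralogs in orange. Black lines are the medians of the 79 genes, from -0.45 with MG132 and α-amanitin against MG132 to 0.42 with MG132 against bortezomib, and dashed lines are the medians of all tested genes, which lie between -0.04 and 0.02.

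Bortezomib, a peptide boronic acid where MG132 is a peptide aldehyde, gave a median of -0.34 against G2 cells (range -0.66 to 0.04), with 78 of 79 genes below 0 and a median of -0.01 over all tested genes. edgeR called 0 of the 79, against 1.15% of all tested genes, and 1 had an unadjusted p under 0.05, beside 14.5% of all, while DESeq2 and limma-voom called 0. RPL26L1, a close paralog of RPL26 (ENSG00000037241.7; hg38 chromosome 5, 172958729 to 172969771), was at 26.2, 19.2, 31.6 and 22.8 CPM in bortezomib cells and 52.8, 47, 27.7 and 28.9 CPM in G2 cells. G2 replicates 1 and 2 were high, and the other 2 G2 libraries lay among those of bortezomib (log2 fold change -0.65, SE 0.28, adjusted p = 0.288). RPS26 was at 232, 206, 278 and 214 CPM in bortezomib cells and 546, 373, 229 and 238 CPM in G2 cells, with the same arrangement (log2 fold change -0.57, SE 0.30, adjusted p = 0.4). RPL22L1, the paralog of RPL22, an RNA-binding protein that ribosomes can lack, gave -0.66 on the log2 scale (adjusted p = 0.466). RPL41, the smallest of the ribosomal proteins, was at 734, 798, 853 and 667 CPM in bortezomib cells and 1859, 1067, 739 and 749 CPM in G2 cells (log2 fold change -0.53, SE 0.33, adjusted p = 0.469).

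For each of these genes G2 replicates 1 and 2, which are among the 6 libraries, were above G2 replicates 3 and 4. Without the 6 the median of the 79 genes for bortezomib was 0.11, and without G2 replicate 1 alone it was -0.10. Within letter O, with 1 bortezomib and 3 G2 libraries, it was -0.05, and with the letter as a block 0.04. The 95% intervals of single genes reached from -1.5 to 0.58, and 48 of 79 lay within a 2-fold change in either direction.

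MG132 with α-amanitin against the same G2 libraries gave a median of -0.35 (range -0.86 to -0.07), with all 79 genes below 0, while the median over all tested genes was below 0.01 in size. edgeR called 0 of the 79, against 3.35% of all tested genes, and 4 had an unadjusted p under 0.05, beside 14.4% of all, while DESeq2 and limma-voom called 0. RPL22L1 was at 89.3, 124, 148 and 152 CPM with MG132 and α-amanitin and at 398, 246, 144 and 146 CPM in G2 cells. The groups overlapped, with α-amanitin replicate 1 the lowest of the 8 libraries and G2 replicate 1 the highest (log2 fold change -0.86, SE 0.40, adjusted p = 0.334). RPS26 was at 200.3, 206, 226 and 254 CPM with MG132 and α-amanitin, beside the G2 values given above (log2 fold change -0.65, SE 0.30, adjusted p = 0.338). RPL26L1 gave -0.62 on the log2 scale (adjusted p = 0.3).

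The 3 drug comparisons with G2 share the same 4 G2 libraries, so their values are not independent of each other. For the α-amanitin group the median was 0.11 without the 6 libraries and -0.12 without G2 replicate 1. It was -0.89 within letter L, where the G2 library is replicate 1, and 0.14 within letter O. With the slope covariates it was 0.26, beside 0.04 over all tested genes. The length slopes of the G2 libraries, -0.080 to 0.045, also lay below those of the α-amanitin group, so the same limit holds. Scaling to the 13 mitochondrial mRNAs, which another polymerase makes, gave -0.77 beside a median of -0.41 over all tested genes. Under that scaling edgeR called 1 of the 79, RPL22L1 (log2 fold change -1.29, adjusted p = 0.0459), where 5.18% of all tested genes were called. As given above, the median of these 13 mRNAs also differed between groups without α-amanitin.

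MG132 and bortezomib were compared directly, at the same 3 h. The 79 genes had a median log2 fold change of 0.42 (range -0.25 to 0.67), with 78 above 0 and RPL7L1 alone below, and the median over all tested genes was -0.01. edgeR called 0 of the 79, and only 7 genes in all (0.0369% of those tested). The unadjusted p was under 0.05 for 3 of the 79, beside 4.05% of all tested genes, and DESeq2 and limma-voom called 0. RPSA, a small subunit protein also known as the laminin receptor, was at 1144, 2222, 1348 and 1947 CPM in MG132 cells and 1149, 995, 1155 and 892 CPM in bortezomib cells. The 2 GC-skewed MG132 libraries, replicates 2 and 4, were the highest, and the groups overlapped by 1 library (log2 fold change 0.67, SE 0.29, adjusted p = 0.983; 95% interval 0.07 to 1.27).

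RPLP0, RPS14 and RPS19 did not overlap between the groups, where 1.74% of all tested genes were higher in MG132 cells without overlap. RPLP0 (ENSG00000089157.16; hg38 chromosome 12, 120196686 to 120201235) was at 2407, 4198, 2789 and 3691 CPM in MG132 cells and 2219.6, 2179, 2355 and 1866 CPM in bortezomib cells (log2 fold change 0.60, SE 0.28, adjusted p = 0.983). The gap between the lowest MG132 library and the highest bortezomib library was small beside the spread within MG132. RPS14, the gene lost in the 5q- syndrome, was at 549, 1055, 612 and 824 CPM in MG132 cells and 525, 531, 544 and 440.4 CPM in bortezomib cells, and was separated by only a few CPM (log2 fold change 0.58, SE 0.31, adjusted p = 0.983). RPS19, the gene most often mutated in Diamond-Blackfan anaemia, was at 775, 1065, 837 and 1262 CPM in MG132 cells and 724, 718, 739 and 599.7 CPM in bortezomib cells (log2 fold change 0.50, SE 0.29, adjusted p = 0.983). Without the 4 GC-skewed libraries the median of the 79 genes was 0.14, and without the 6 it was 0.15. Within letter O, with 2 MG132 libraries and 1 of bortezomib, it was 0.42, and with the letter as a block 0.16.

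G2 cells were set against asynchronous cells to address the synchronisation. The median log2 fold change was -0.27 (range -0.49 to 0.02), with 77 of 79 genes below 0, and the median over all tested genes was -0.04. edgeR called 0 of the 79, against 2.09% of all tested genes, and 1 had an unadjusted p under 0.05, beside 13.1% of all, while DESeq2 and limma-voom called 0. That gene was RPL7L1 (ENSG00000146223.16; hg38 chromosome 6, 42879618 to 42889925). It was at 162, 259, 216 and 197 CPM in G2 cells and 218, 286, 368 and 299.7 CPM in asynchronous cells. The groups overlapped, since asynchronous replicate 1 was lower than the other 3 of its group (log2 fold change -0.49, SE 0.19, adjusted p = 0.23; 95% interval -0.89 to -0.09). With the slope covariates its log2 fold change was -0.61 and the adjusted p was 0.00753, a fit chosen after seeing the data. That fit called 15.8% of all tested genes and RPL7L1 alone of the 79.

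RPS29, a zinc-binding protein of the small subunit's head, was at 377, 314, 195 and 202 CPM in G2 cells and 709, 215, 388 and 203 CPM in asynchronous cells. Asynchronous replicate 1 was far above the rest (log2 fold change -0.48, SE 0.35, adjusted p = 0.664), and without it the log2 fold change was 0.02. RPL34, RPS28 and RPS15 had log2 fold changes of -0.47, -0.46 and -0.46, with adjusted p of 0.602, 0.568 and 0.549. The median of the 79 genes depended on single libraries. It was 0.07 without asynchronous replicate 1, -0.43 without asynchronous replicate 2, -0.52 without G2 replicate 1, -0.15 without G2 replicate 3 and -0.16 without G2 replicate 4. Without the 6 libraries it was -0.18 and with the slope covariates 0.04, beside 0.05 over all tested genes. Within letters it was -0.46 in L and -0.53 in O.

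Apart from RPS9, RPLP0, RPS14 and RPS19, the libraries of the compared groups overlapped in CPM for the 79 genes in each of the 6 comparisons. Beside that stand the shares of all tested genes that were separated. For MG132 with α-amanitin against MG132, 4.82% were higher without overlap, and for MG132 against bortezomib 1.42% were lower. For MG132 against G2 the shares were 2.07% higher and 4.45% lower, for bortezomib against G2 7.66% higher and 7.55% lower, for MG132 with α-amanitin against G2 7.76% higher and 7.24% lower, and for G2 against asynchronous cells 5.75% higher and 1.89% lower.

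**Figure D4:**
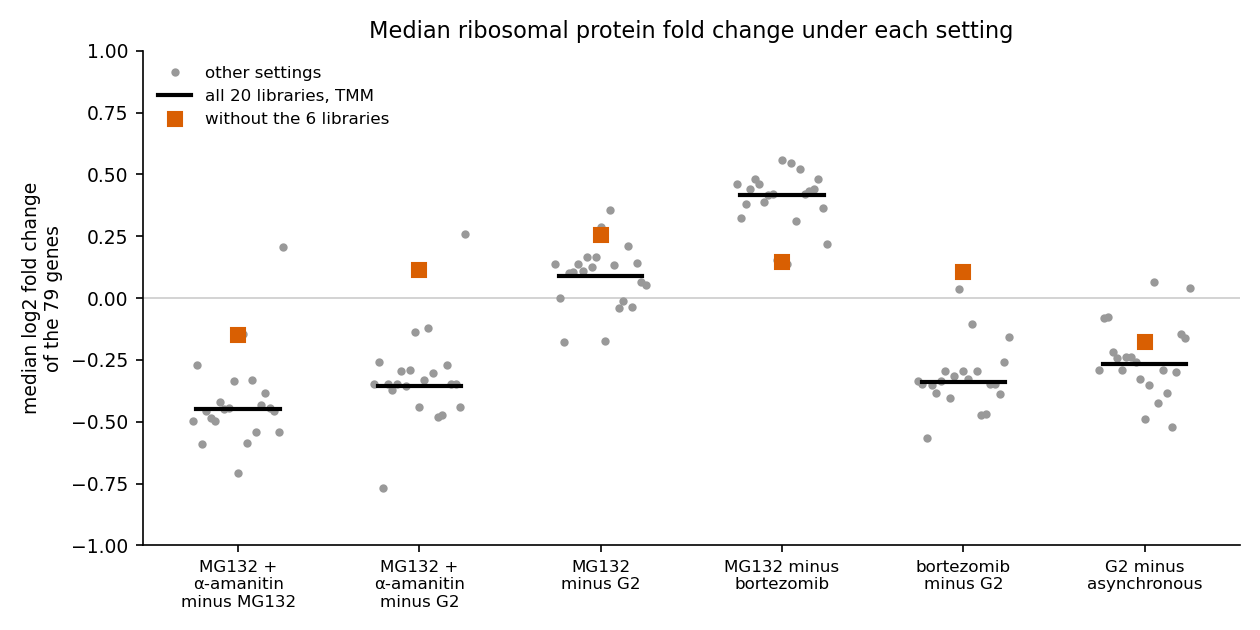
Median log2 fold change of the 79 genes (vertical axis) in 6 comparisons, with the value from all 20 libraries as a black line, the value without the 6 libraries as an orange square and all other settings, leave-one-out included, as grey points. For bortezomib and for MG132 with α-amanitin against G2 the square is at 0.11, on the other side of 0 from the lines at -0.34 and -0.35.

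Because the genes move together, each was also set against the mean log2 level of all 79 in the same library, which removes the shared part. This scale was chosen after seeing the data. With the summed counts of the 79 genes as the basis of scaling, edgeR called 0 of the 79 in each comparison. RPL26L1 for MG132 against G2 was the only one with an unadjusted p under 0.05. The scaling sets the shared change of the 79 near 0 before they are tested. Few calls were therefore likely in advance, and the 0 adds nothing to the calls above. DESeq2 and limma-voom were not run with this scaling. The share of all tested genes called was 1.48% for MG132 against G2, 0.332% for bortezomib against G2, 1.55% for MG132 with α-amanitin against G2, 1.26% for MG132 with α-amanitin against MG132, 0.0105% for MG132 against bortezomib and 2.77% for G2 against asynchronous cells. RPL26L1 had relative log2 levels of -4.33, -4.44, -4.28 and -4.18 with MG132 and α-amanitin, -4.52, -4.41, -4.26 and -4.40 with MG132, -4.29, -4.73, -4.15 and -4.26 with bortezomib, -4.12, -3.87, -4.05 and -4.02 in G2 cells and -4.09, -4.10, -3.92 and -3.92 in asynchronous cells. Every drug library was below every G2 and asynchronous library, but barely so for bortezomib replicate 3 and G2 replicate 1. The share of all tested genes separated in this way was not counted. Under this scaling its log2 fold change against G2 was -0.44 for MG132 (adjusted p = 0.255) and -0.35 for bortezomib.

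RPS26 had relative log2 levels of -1.07, -1.25, -1.17 and -1.19 with MG132 and α-amanitin, -1.08, -1.63, -1.04 and -1.15 with MG132, -1.15, -1.31, -1.01 and -1.04 with bortezomib, -0.75, -0.89, -1.01 and -0.98 in G2 cells and -0.57, -0.997, -0.81 and -0.68 in asynchronous cells. Its drug libraries were below its G2 libraries, but barely so for bortezomib replicate 3 and G2 replicate 3. For MG132 against G2, 2 of the 79 genes were lower without overlap on this scale, RPL26L1 and RPS26, where 4.88% of all genes were, and 4 were higher, RPL3, RPL4, RPL10A and RPLP0, where 1.17% were. For bortezomib against G2, 4 were lower (RPL26L1, RPL27, RPS25 and RPS26; 2.41% of all genes) and 0 were higher (5.26%). For MG132 with α-amanitin against G2, 6 were lower (RPL22L1, RPL24, RPL26L1, RPL38 and RPS26 among them; 3.4%) and 5 were higher (RPL3, RPL4, RPL10, RPL13A and RPS4X; 6.5%). For MG132 with α-amanitin against MG132, 2 were lower (RPL10A among them; 1.59%) and RPL22 was higher (15.6%). For MG132 against bortezomib, 4 were higher (RPL27, RPL32, RPLP0 and RPS10; 0.222%) and RPL22 was lower (4.4%). For G2 against asynchronous cells, 3 were lower (RPL34, RPL36 and RPL38; 0.29%) and 2 were higher (RPL12 and RPL13A; 7.34%). The shift of the 79 is subtracted from every gene on this scale, so the shares over all genes move with it. In CPM, 1.74% of all genes were higher without overlap for MG132 against bortezomib. For MG132 with α-amanitin against MG132, 4.82% were. The shares on this scale are therefore no like comparator for the 79. For RPL4 the relative log2 levels were 1.74, 1.70, 1.71 and 1.73 with MG132 and α-amanitin, 1.72, 1.93, 1.69 and 1.80 with MG132, 1.73, 1.71, 1.64 and 1.67 with bortezomib and 1.38, 1.56, 1.65 and 1.62 in G2 cells, of which G2 replicate 1 was the lowest.

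**Figure D5:**
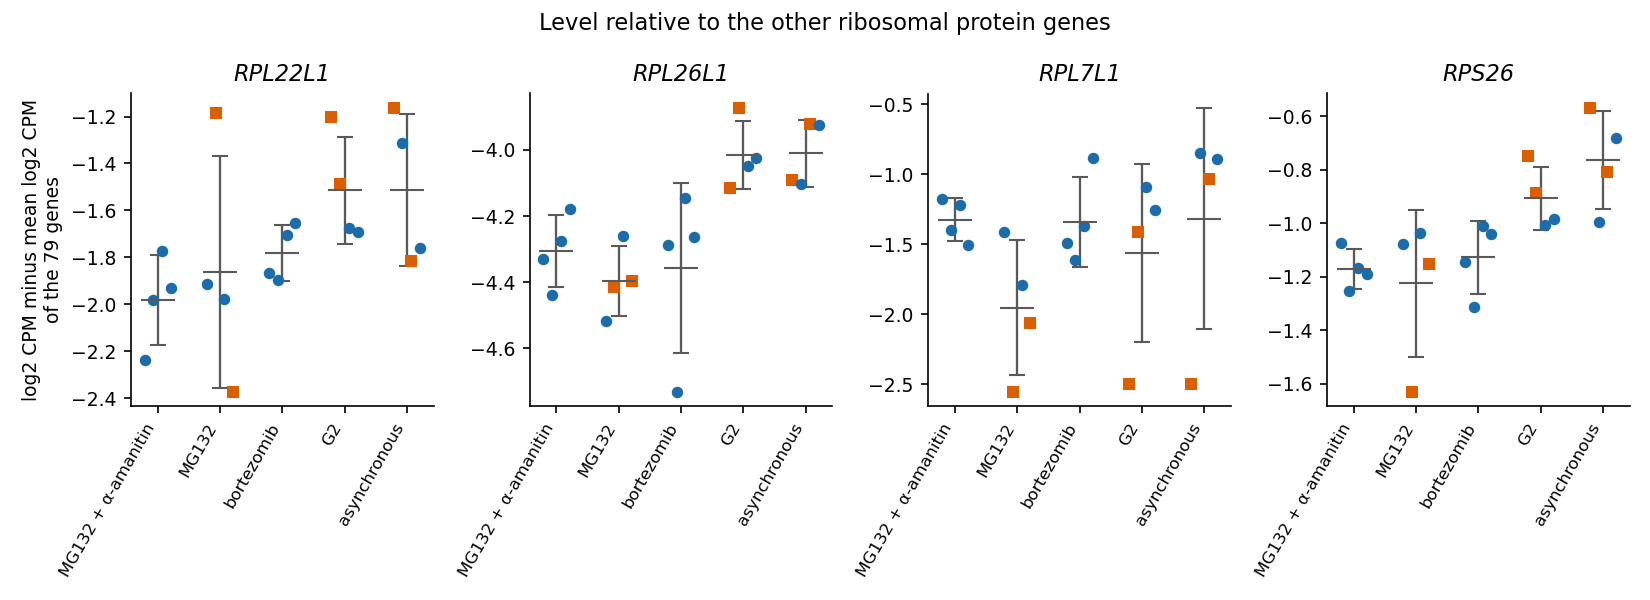
log2 CPM minus the mean log2 CPM of the 79 genes in the same library (vertical axes, 1 scale per panel) for RPL22L1, RPL26L1, RPL7L1 and RPS26, with 1 point per library and the mean ± SD (n = 4) of each group; orange squares are the 6 libraries whose composition stood apart. RPL26L1 lies at -4.15 or lower in all drug libraries and at -4.12 or higher in all G2 and asynchronous libraries, a narrow gap. The share of all tested genes separated in this way was not counted. RPL22L1 and RPL7L1 spread widely within groups.

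Each paralog was also set against its partner. RPL22L1 was at 63.4 ± 9.69% of the RPL22 level with MG132 and α-amanitin, 84.8 ± 21.9% with MG132, 67.9 ± 9.01% with bortezomib, 107 ± 45.4% in G2 cells and 96.9 ± 31.1% in asynchronous cells (SD, n = 4 each, ratio of CPM). All groups overlapped, although the α-amanitin libraries, at 50.7% to 74.1%, only just reached the G2 libraries, at 73.4% to 170.4%. RPL26L1 was a small addition to RPL26, at 7.21 ± 0.362% with MG132 and α-amanitin, 6.75 ± 0.806% with MG132, 6.81 ± 1.27% with bortezomib, 8.68 ± 0.982% in G2 cells and 8.99 ± 1.30% in asynchronous cells. The highest ratios were 7.57% with MG132 and α-amanitin, 7.60% with MG132 and 7.78% with bortezomib, and the lowest G2 ratio was 7.76%, so of the 3 drug groups the bortezomib group alone overlapped the G2 group. RPL7L1 was at 15.0 ± 9.75% of RPL7 with MG132 and 16.5 ± 6.65% in G2 cells, each with wide spread. These are ratios of CPM that do not allow for transcript length.

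Genes with and without a TOP start had close medians in all 6 comparisons. Those without it lack the tract only at the annotated first base and may still have it nearby. The close medians therefore cannot show whether the tract matters. For MG132 with α-amanitin against MG132 the median log2 fold change was -0.47 over the 46 genes with the tract and -0.39 over the 18 without. For MG132 against G2 it was 0.09 and 0.07, for bortezomib against G2 -0.34 and -0.32, for MG132 with α-amanitin against G2 -0.35 and -0.33, for MG132 against bortezomib 0.43 and 0.37, and for G2 against asynchronous cells -0.28 and -0.26. Across the 79 genes, log2 fold change and annotated transcript length had a Spearman correlation of 0.28 for MG132 with α-amanitin against MG132, 0.36 for the same group against G2, 0.30 for bortezomib against G2, 0.11 for G2 against asynchronous cells, -0.23 for MG132 against bortezomib and below 0.01 in size for MG132 against G2, a description over genes that share these libraries.

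Other genes of the translation machinery were read beside the 79. Of 14 translation factor and related genes known as TOP mRNAs, such as EEF1A1 and TPT1 (8 of the 9 with an entry had the tract by the test above), edgeR called 0 in each of the 6 comparisons, and 4 unadjusted p-values over all comparisons were under 0.05. These 4 were in 4 different comparisons, in which 4.05% to 14.4% of all tested genes had an unadjusted p under 0.05. DESeq2 called 1 (MG132 with α-amanitin against G2) and limma-voom 0. The shares of all tested genes called by DESeq2 and limma-voom are not given. Their counts for the 79 genes and for these lists therefore have no background beside them. Their median log2 fold change was -0.17 for MG132 with α-amanitin against MG132, 0.19 for MG132 against G2, 0.05 for bortezomib against G2 and -0.27 for G2 against asynchronous cells. Of 36 ribosome assembly factors, whose medians ran from -0.31 to 0.17, edgeR called 1, RRS1, which acts in 5S rRNA incorporation. It fell to 26.7 ± 4.23 CPM with MG132 and α-amanitin, against 48.0 ± 10.6 CPM in G2 cells (SD, n = 4 each; log2 fold change -0.85, adjusted p = 0.0312), where 3.35% of all tested genes were called. DESeq2 called 4 over the 6 comparisons, 2 in this one and 2 for MG132 with α-amanitin against MG132, and limma-voom called 1. Of 12 ribosome quality control genes, with medians from -0.21 to 0.16, edgeR called 1, PELO, which splits stalled ribosomes, at 33.3 ± 4.24 CPM with MG132 and α-amanitin against 61.2 ± 5.86 CPM with MG132 alone (log2 fold change -0.88, adjusted p = 0.0105), where 2.19% of all tested genes were called. DESeq2 called 2 over the 6 comparisons, 1 in this one and 1 for MG132 with α-amanitin against G2, and limma-voom called 1.

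Of 78 mitochondrial ribosomal protein genes, edgeR called MRPL44 lower with MG132 and α-amanitin than in G2 cells (log2 fold change -0.69, adjusted p = 0.0382) and MRPL18 lower than with MG132 alone (-1.08, adjusted p = 0.0232). Each was the 1 call of 78, where 3.35% of all tested genes were called against G2 and 2.19% against MG132. DESeq2 called 4 over the 6 comparisons, 2 with MG132 and α-amanitin against G2, 1 against MG132 and 1 for bortezomib against G2, and limma-voom called 2. No share of all tested genes stands beside the counts of these tools. The medians of that list were -0.24 for MG132 with α-amanitin against MG132, -0.14 for MG132 against G2, -0.36 for bortezomib against G2, -0.39 for MG132 with α-amanitin against G2, 0.22 for MG132 against bortezomib and -0.22 for G2 against asynchronous cells. Of the fusion and further paralog genes, 6 of 8 were tested, with medians from -0.39 to 0.40. RPL3L, a paralog of RPL3 mainly known from muscle, was called higher by edgeR in MG132 cells, at 1.92 ± 0.348 CPM against 0.474 ± 0.205 CPM in G2 cells (SD, n = 4 each; log2 fold change 2.02, adjusted p = 0.0324), which is close to no expression beside RPL3. In bortezomib cells it was at 1.13 ± 0.147 CPM, with each library above each G2 library, but was not called (log2 fold change 1.25, adjusted p = 0.234). With MG132 and α-amanitin it was at 0.543 ± 0.188 CPM (log2 fold change against MG132 -1.81, adjusted p = 0.0525 by edgeR), and DESeq2 and limma-voom each called 1 gene of the list in that comparison. Against G2, edgeR called 1 of the 6 in MG132 cells, beside 2.08% of all tested genes. RPS27A, a ubiquitin fusion gene, FAU and RPS27L were not called in any comparison by edgeR.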

How the data were processed

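Stranded libraries were made from total RNA of 20 samples after removal of ribosomal RNA, per the labels' protocols. What the authors deposited is a table of counts, whole numbers without normalisation, for 39918 genes and 1174 repeat subfamilies, with a column for each of the 20 samples and 0 columns left unused. Named in the submitters' processing notes, without roles, are STAR, cutadapt 1.18, FastQC and the build hg38. Not given in the sources used here are the counting tool, its strand setting and how it treated multi-mapped reads. Ribosomal protein genes have many near-identical pseudogene copies, and the 895 pseudogene rows held 1.20% to 1.50% as many counts as the 79 genes, so reads may be split between copies. Symbols came from a table matched to 39711 genes, and biotypes, positions and transcript lengths from GENCODE release 29, which covered 38661.

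Counts were fitted in R 4.3.3 with edgeR 4.0.16 (filterByExpr, TMM scaling, glmQLFit with robust estimation and glmQLFTest), with 1 mean per group over all 20 libraries. This left 15 residual degrees of freedom, at a biological coefficient of variation of 33.3%. Adjusted p-values are from edgeR by the Benjamini-Hochberg method over the 18959 genes tested unless another tool is named, and the threshold for a call was 0.05. Fold changes are the first group named over the second. Means of CPM carry the SD between 4 libraries. The script was tested on simulated data. The alternatives were other scalings, filters, DESeq2 1.42.0, limma-voom (limma 3.58.1), a fit of only the groups compared, blocks for the replicate number and the code letter, an offset for GC content and length, a 1.5-fold minimum, and leaving out libraries. Leaving out the 6 libraries, scaling to the 79 genes and the slope covariates were added after seeing the data. Replicates were compared for duplicate deposition by chi-square, and the closest pair (G2 replicates 3 and 4) had 11.1 per degree of freedom, so none was merged.

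Named genes were the 5 highest and 5 lowest fold changes of each comparison among members whose log2 CPM averaged 3 or more, together with a set of well-known members and paralogs. A few genes are not reported here by name. The members and lists were chosen with earlier results of these data known.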

Additional observations from a re-analysis of the deposited data

Results flagged for a closer look

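In 6 of 115 sets of 4 libraries for the named genes, 1 library lay apart from the other 3 by more than Dixon's 95% critical value allows. Chance flags about 1 in 20 such sets. RPL10A was at 544 CPM in bortezomib replicate 4, against 724 to 738 CPM in the other 3 bortezomib libraries. RPS19 was at 599.7 CPM and RPS27 at 385 CPM in the same library, against 718 to 739 CPM and 499 to 517 CPM in the others. Bortezomib replicate 4 also had the lowest share of counts from the 79 genes, 4.30%. RPL22L1 was set apart in 3 groups. It was at 380 CPM in MG132 replicate 2 (133 to 154 CPM in the others), at 172 CPM in bortezomib replicate 3 (137 to 141 CPM) and at 549.6 CPM in asynchronous replicate 1 (164 to 214 CPM). MG132 replicate 2 and asynchronous replicate 1 are among the 6 libraries whose composition stood apart, and the part of that composition in these values was not tested.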

How the results depend on the processing

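Calls among the 79 genes stayed at 0 in 142 of 144 combinations of comparison and setting. The settings include scaling to the 79 genes, which sets their shared change near 0 in advance. Slope covariates gave 1 call for G2 against asynchronous cells (RPL7L1) and mitochondrial mRNA scaling gave 1 for MG132 with α-amanitin against G2 (RPL22L1). Slope covariates also moved the median log2 fold change of the 79 genes to 0.26 for MG132 with α-amanitin against G2 and to 0.20 for that group against MG132. In both, the length slopes differed between the groups, so that fit may also remove part of the treatment difference. Of 759 single-gene results, 741 kept their direction and side of the threshold, 2 gained a call and 16 reversed, and the cause was not tested. With slope covariates the reversed values were 0.0071 for RPS29 (G2 against asynchronous), 0.10 for RPL22L1 and 0.057 for RPS26 (MG132 with α-amanitin against G2), and 0.0090 for RPL10A, 0.48 for RPL22L1, 0.14 for RPL37A, 0.16 for RPS27 and -0.0019 for RPL7L1 (MG132 with α-amanitin against MG132). With the GC and length offset RPL7L1 was at -0.16 there and at 0.077 for MG132 against bortezomib. Without the 6 libraries RPS26 was at 0.18 for MG132 against G2, and RPL22L1 and RPL41 at 0.0062 and 0.018 for bortezomib against G2. RPL10A was at -0.082 for MG132 against G2 without the GC-skewed libraries, RPS26 between -0.45 and 0.0080 there when 1 library was left out (highest without G2 replicate 1), and RPS29 between -0.68 and 0.021 for G2 against asynchronous cells (highest without asynchronous replicate 1). Leaving out 1 library at a time put the median of the 79 genes between -0.59 and -0.33 for MG132 with α-amanitin against MG132, -0.04 and 0.36 for MG132 against G2, -0.47 and -0.10 for bortezomib against G2, -0.48 and -0.12 for MG132 with α-amanitin against G2, 0.31 and 0.55 for MG132 against bortezomib, and -0.52 and 0.07 for G2 against asynchronous cells.

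Over all groups, same-numbered replicates did not regularly deviate together (12 of 40 pairs correlated above 0.1, median -0.01), and the numbers were not taken as pairs. For MG132 with α-amanitin against MG132, 2 of 4 such pairs were above 0.1 (range 0.03 to 0.53). Of pairs with the same code letter, 15 of 33 were above 0.1, up to 0.83. A shared batch or pairing in some comparisons therefore remains possible. With a replicate block, calls among the 79 stayed at 0 and the median for MG132 with α-amanitin against G2 was -0.29. A code letter block gave -0.14 for that comparison, 0.04 for bortezomib against G2 and 0.16 for MG132 against bortezomib. Scaling moved the median of all tested genes by over 0.1, from -0.00 to -0.41 for MG132 with α-amanitin against G2 with mitochondrial mRNA scaling, where the 79 genes were at -0.77. Over 24 settings the genes called in all numbered 186 to 1049 for MG132 with α-amanitin against MG132 (415 as reported), 86 to 2351 for MG132 against G2 (395), 30 to 1560 for bortezomib against G2 (218), 224 to 996 for MG132 with α-amanitin against G2 (636), 0 to 29 for MG132 against bortezomib (7) and 8 to 2999 for G2 against asynchronous cells (397). Counting error is small for these abundant mRNAs, and the spread between libraries, with a standard error near 0.287, sets what could be detected.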
